A study of Mus musculus with 21 samples.

Results

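The regions described here are 999 tall c-MYC peaks of wild-type mouse embryonic fibroblasts (MEFs), out of 220037 peaks in the wild-type (WT) list. They lie away from gene starts, and no peak in the list of Hsf1-deleted (CKO) cells overlaps them. The CKO list holds 6386 peaks. A missing CKO peak is a missing call, and CKO signal at these regions was not measured here. Members were selected on measured values: a peak was taken when its maximal signal was at least 0.0086 in the authors' scaled units, its width was under 8000 bp, no CKO peak shared a base with it, and every gene start of the count table was more than 5000 bp away. The rule therefore used height, width, CKO overlap and distance to gene starts, and all values of those 4 quantities below are descriptions without a test. Because deposited heights were whole multiples of a fixed step in each list, height is given below in steps (1 step was 0.000361 units in the CKO list and 0.000684 in the WT list). What 1 step stands for is not given in the sources used here, and the height limit came to 23.8 CKO steps and 12.6 WT steps.

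The study asked how heat shock factor 1 (HSF1) bears on transcription driven by c-MYC. For c-MYC the assay was CUT&RUN, where a nuclease tethered to an antibody releases the nearby chromatin. It was run on MEFs given 4-hydroxytamoxifen (1 mM per the labels) for 7 days to delete Hsf1 (CKO, 2 replicates), in the same kind of cells given ethanol for 7 days (WT, 2 replicates) and with IgG on a mixture of both (1 sample). RNA was sequenced from immortalized MEFs that stably expressed LacZ or V5-tagged GCN5, the acetyltransferase encoded by Kat2a, 2 days after transfection with 10 nM siRNA. The groups were siHsf1 LacZ, siControl LacZ, siHsf1 GCN5 and siControl GCN5, with 3 libraries each; the labels call them triplicates and do not say whether they were separate cultures, so p-values measure the spread between these libraries. The labels do not name the transgene behind the inducible deletion, the antibody is labelled as recognizing both c-MYC and N-MYC, and 4 further samples (siMyc and its control) were not analysed here.

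MYC binds DNA as a heterodimer with MAX, with highest affinity at the E-box CACGTG, and most of its sites in proliferating cells lie at active promoters. Peaks away from promoters can mark enhancers, which bind many factors and act on genes at a distance. HSF1 is the master activator of heat-shock genes and has further targets in growing cells.

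Annotated RefSeq promoter windows inside the peaks are the only stretches whose sequence could be read here. Such windows occur because RefSeq places some starts differently from the count table or lists genes that the count table lacks. RefSeq windows (GRCm38.p6; 250 bases before to 50 bases after a start, 300 in all) overlapped 13 of the 957 tall distal WT-only peaks on assembled chromosomes (1.36%, Wilson 95% interval 0.796 to 2.31%), against 0.468% of 173844 lower distal WT-only peaks and 15.5% of 265 tall distal peaks shared with CKO. These 13 peaks overlapped 14 windows, 13 of them whole, of Gm51639, Limk2, Dip2b, Galnt6, Gm52230, Gemin6, Gm13165, Gm52805, Abcg2, Stk32c, Gm51593, Gm51594, Gm51701 and Gm52448. For 7 of the 14 windows, those of Gm51701 and Gm52448 among them, the gene was absent from the count table. The distance rule could not use its start. Of the 14 windows 4 are shown, the first pair for repeat-like letters and the other pair as second starts inside longer genes. Capitals mark a repeat-like stretch in Gm51701 and Gm52448 and the 50 bases from the annotated start onward in Stk32c and Abcg2.
Gm51701 (chr9:123924898-123925197, + strand, in a peak of 35 steps): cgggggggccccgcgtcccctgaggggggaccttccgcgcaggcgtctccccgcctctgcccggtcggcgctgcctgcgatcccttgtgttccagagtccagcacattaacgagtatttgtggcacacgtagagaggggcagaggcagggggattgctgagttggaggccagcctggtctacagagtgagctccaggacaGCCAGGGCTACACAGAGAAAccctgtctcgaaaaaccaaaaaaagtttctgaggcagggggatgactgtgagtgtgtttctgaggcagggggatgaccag
Gm52448 (chrX:89677807-89678106, + strand, in a peak of 14 steps): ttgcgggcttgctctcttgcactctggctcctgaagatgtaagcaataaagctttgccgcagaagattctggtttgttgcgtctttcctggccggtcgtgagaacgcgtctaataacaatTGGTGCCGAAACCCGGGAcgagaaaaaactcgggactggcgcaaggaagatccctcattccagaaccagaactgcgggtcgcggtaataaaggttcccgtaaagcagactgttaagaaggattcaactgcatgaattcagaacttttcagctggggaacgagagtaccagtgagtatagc
Stk32c (chr7:139188445-139188744, - strand, in a peak of 21 steps): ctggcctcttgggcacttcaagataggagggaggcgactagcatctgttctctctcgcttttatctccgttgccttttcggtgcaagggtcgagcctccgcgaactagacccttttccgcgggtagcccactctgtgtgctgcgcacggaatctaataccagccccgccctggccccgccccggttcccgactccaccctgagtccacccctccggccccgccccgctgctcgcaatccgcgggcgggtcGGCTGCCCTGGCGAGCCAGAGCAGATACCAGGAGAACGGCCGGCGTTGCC
Abcg2 (chr6:58596422-58596721, + strand, in a peak of 13 steps): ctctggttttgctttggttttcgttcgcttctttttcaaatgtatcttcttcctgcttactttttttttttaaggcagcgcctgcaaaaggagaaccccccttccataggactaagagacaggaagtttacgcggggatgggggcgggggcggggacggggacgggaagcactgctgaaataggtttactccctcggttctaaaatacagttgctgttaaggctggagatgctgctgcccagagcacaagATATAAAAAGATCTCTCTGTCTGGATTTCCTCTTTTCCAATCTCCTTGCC

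The capitals of Gm51701 are letters of B1, a short interspersed repeat present in very many copies in the mouse genome. This 20-base stretch was searched exactly, on both strands, and stood in 12 of 32851 RefSeq promoter windows (0.0365%). The capitals of Gm52448 are complementary to the 3′ end of phenylalanine tRNA, which endogenous retroviral elements of the IAP family use as their primer-binding site. This 18-base stretch stood in 4 of the 32851 windows (0.0122%). Both stretches were picked after the windows had been read, so no test applies to them.

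None of the 14 windows held the E-box CACGTG, which 7.15% of all RefSeq promoter windows held, or the related CACGCG, held by 9.27%. The AP-1 motif TGANTCA (7.81% of all windows) and a heat-shock element (0.603%) were also in 0 of 14. The TEAD motif GGAATG was in 2 of 14, those of Galnt6 and Gm52448, against 14.7% of all windows. Motifs were searched on both strands, no motif contains another, and CACGTG reads the same on either strand. With 14 windows a missing motif says only that these letters are not in these windows, and 0 of the 14 touched the stretch of maximal signal of its peak. The median GC content was 50.8% in the 14 windows and 52.7% in all windows.

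Most of the 999 peaks stood only just above the limit, and a small tail was far taller. Of them 433 were 13 steps high, the lowest height the rule admits, 218 were 14 and 113 were 15 steps high. In the tail, 97 peaks reached 20 steps, 28 reached 30 steps and 10 reached 41 steps or more. The 433 peaks of 13 steps had a median width of 2942 bp, against 2773.5 bp for the 850 distal WT-only peaks of 12 steps just outside the limit. A further 101 peaks met the rule but for their width.

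The 10 tallest peaks were mostly narrow spikes in intergenic DNA. The tallest, chr6:103314571-103314837 (267 bp, 85 steps), lay 195877.5 bp from the start of Chl1, a neural cell adhesion molecule. The next were chr14:86198926-86199305 (84 steps, 380 bp, nearest gene the lncRNA Gm32729) and chr2:57629114-57629727 (82 steps, 614 bp, nearest gene the pseudogene Gm13531). The fourth, chr16:93789112-93789466 (73 steps, 355 bp), lay within Dopey2. These 4 stood among neighbours no higher than 11 steps within 100 kb.

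The fifth, chrY:4036622-4036749, was the narrowest of all 999 peaks (128 bp, 60 steps) and lay near the vomeronasal receptor pseudogene Vmn2r-ps139. A peak of 59 steps at chr5:151734324-151734698 had Rfc3, a subunit of the clamp loader of DNA replication, as its nearest gene. The remaining 4 reached 56 steps near Gm42313, 46 steps within Nkain3, 44 steps near Bmpr1b, which encodes a BMP receptor, and 41 steps near Frmd4a. Altogether 7 of the 10 were at most 1000 bp wide and 2 lay within a gene of the count table. Of their nearest genes only Rfc3 and Frmd4a had enough reads to be tested in the RNA libraries. Rfc3 had 104, 61.5 and 84.0 spike-scaled CPM (counts scaled to the spike-in RNA) in siHsf1 LacZ libraries, against 108, 76.8 and 78.4 in siControl LacZ libraries, so the groups overlapped.

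**Figure D1:**
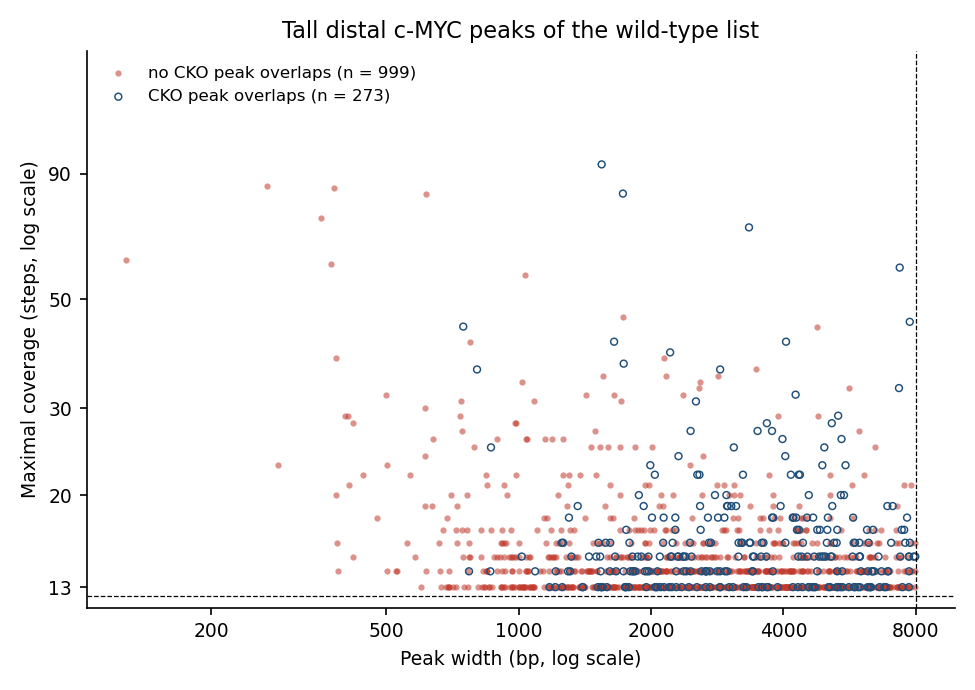
Width (bp) and maximal coverage (steps) of each tall distal WT peak, on log axes: filled points are the 999 peaks that no CKO peak overlaps, open circles the 273 that a CKO peak overlaps, and dashed lines the limits of the rule. Of the filled points 18 lie at widths up to 500 bp, where no open circle lies, and both sets thin out above 20 steps.

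At the narrow end, the narrower peaks were the taller ones. The 18 peaks up to 500 bp wide had a median height of 28.5 steps (14 to 85), against 15 steps for the 102 peaks of 500 to 1000 bp and 14 steps for each wider class. Of the 120 peaks up to 1000 bp, 29.2% reached 20 steps, against 7.05% of the 879 wider ones. Widths up to 1000 bp made up 12.01% of the 999 peaks, against 1.83% of the 273 tall distal shared peaks and 1.63% of the lower distal WT-only peaks. The last share is limited by the peak caller's floor on total signal, since every WT peak had a total of at least 2.36, so that a peak below the height limit needs more than 274.656 bp; the narrowest observed was 528 bp. The same floor admits a very narrow peak only if it is tall, so the greater height of the narrowest peaks is partly built in. The median width was 2619 bp for the 999 peaks, 3295 bp for the shared and 1803 bp for the lower peaks.

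The tall distal WT-only peaks stood among lower WT peaks. Within 100 kb, 994 of the 999 had another WT peak, with a median of 20 such neighbours and a neighbour height of 6 steps. The height was 2.17 times the median of its neighbours at the median peak, and 712 of the 994 (71.6%) were taller than every neighbour. Both values follow largely from the height rule, since all WT peaks had a median height of 6 steps. No other set of peaks was measured in this way. Signal was also less centred than in shared peaks: the maximum fell in the middle 50% of the peak in 59.0% of the 999 peaks, against 67.0% of the shared and 68.0% of the lower distal ones.

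The share of peaks without an overlapping CKO peak differed by place and height. Of 1272 tall distal WT peaks, 999 (78.5%, 76.2 to 80.7%) had no CKO overlap, against 381 of 1925 (19.8%) tall peaks within 5000 bp of a gene start, 99.5% of lower distal peaks and 97.4% of all WT peaks. Among the tall distal peaks the share was 86.4% at 13 steps, 78.6% at 14 to 15, 66.0% at 16 to 19, 70.4% at 20 to 29 and 65.1% (50.2 to 77.6%) at 30 steps or more. Where a CKO peak did overlap, its height had a median of 0.00469 units, against 0.0103 units for the WT peak, and in 1 of 273 cases the CKO peak was at least as high. These WT peaks were chosen for height and the CKO peaks were not, so a lower CKO height is partly built in. The step also differed, at 0.000361 units in the CKO list and 0.000684 in the WT list. The same rule turned round, with tall distal CKO peaks that no WT peak overlaps, gave 10 of 48. There the height limit stood at 23.8 CKO steps, against 12.6 steps in the WT list. Each genotype has 1 list, so no spread between replicates can be set beside these shares, and the lists differ in length (6386 CKO and 220037 WT peaks), covered DNA (11.5 Mb and 509.9 Mb) and lowest total signal (1.56 and 2.36). The part of these differences in the shares was not tested.

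**Figure D2:**
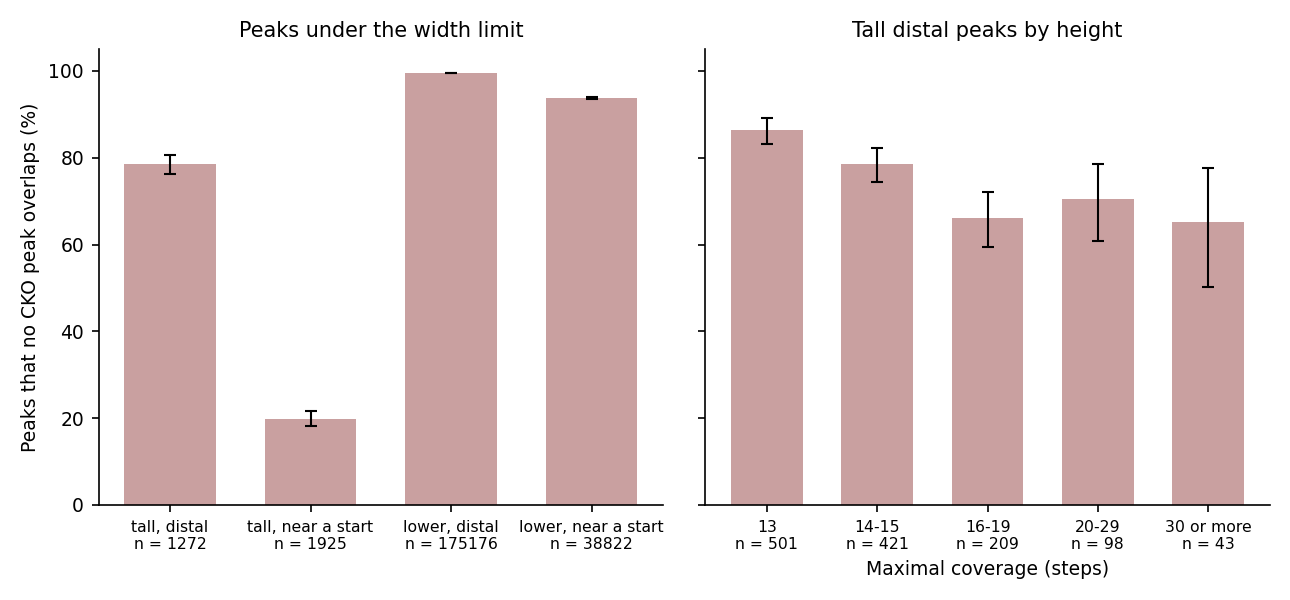
Percentage of WT peaks that no CKO peak overlaps, with Wilson 95% intervals as bars: left, peaks under the width limit by height class and distance to gene starts; right, tall distal peaks by height in steps. The share is 78.5% for tall distal and 19.8% for tall peaks near a start, and in the right panel it is highest at 13 steps (86.4%).

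The nearest CKO peak was usually far away, as it was for lower distal WT-only peaks. The median gap was 276929 bp for the 957 peaks on assembled chromosomes and 268234 bp for the lower ones, and 36.3% against 34.2% had no CKO peak within 500 kb. The median number of WT peaks within 500 kb was 95, against 108 around lower distal and 150 around shared peaks. Sites close to a CKO peak were rare: requiring 1000 bp to the nearest CKO peak left 992 of the 999. Of the pair of peaks in Sfi1, which encodes a centrosomal protein, the nearest CKO peaks lay 1386 and 4532 bp away.

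Genes held a minority of the tall distal WT-only peaks. Gene bodies of the count table held 406 of the 999 (40.6%, 37.6 to 43.7%), against 61.9% (56.0 to 67.5%) of the shared tall distal and 49.1% of the lower distal WT-only peaks. On assembled chromosomes alone the shares were 42.4%, 63.8% and 49.2%. The nearest gene was protein-coding for 434 of 957 peaks (45.4%), a pseudogene for 209 (21.8%) and a lncRNA for 281 (29.4%). Shared peaks had a protein-coding gene nearest in 159 of 265 cases and a pseudogene in 7.17%, lower distal peaks 44.3% and 16.3%. The centre of the median peak lay 35660.5 bp from the nearest start, against 19213.5 bp for shared and 35634 bp for lower distal peaks. These are descriptions of 1 list, whose peaks share a library and its depth, and no test was made.

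Some of the genes that hold these peaks bear on MYC and its coactivators; they were singled out after their values were seen. Pvt1, the lncRNA gene next to Myc, held a peak of 13 steps at chr15:62114561-62120577 and another at chr15:62185200-62187656. Tada2a, an adaptor subunit of GCN5 acetyltransferase complexes, held peaks at chr11:84078225-84081091 and chr11:84100570-84101636, each of 13 steps. Abcg2, a drug efflux transporter, held 4 peaks of 13 to 17 steps in 17.6 kb, with 0 CKO peaks among them. No gene of a 13-gene MYC network list (MYC, MAX, MNT, MGA, MLX and MXD family) was the nearest gene of any of the 957 peaks. Of the 41608 genes of the count table only 871 were nearest genes, so 0 of 13 says nothing particular about this list.

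Chromosomes differed in how many of their distal WT-only peaks were tall. Over the genome 999 of 175268 distal WT-only peaks (0.570%, 0.536 to 0.606%) were tall enough, against 1.84% (1.31 to 2.59%) on chromosome 12, 1.55% on chromosome 7, 0.898% on chromosome 4 and 0.307% on chromosome 17. The share was 5.26% on chromosome Y, which rests on 5 peaks, and 8.99% (6.72 to 11.9%) on unplaced scaffolds, which gave 42 of their 467. The scaffolds are named differently in the count table, so the distance to a gene start could not be measured for these 42 peaks and they passed that step by default. Chromosome 15 held the largest number, 103, a share of 0.724% (0.597 to 0.877%), and 8.12% of all distal WT-only peaks lay on it. None of the 103 was 1000 bp or narrower and none exceeded 21 steps. Their median width was 3963 bp.

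**Figure D3:**
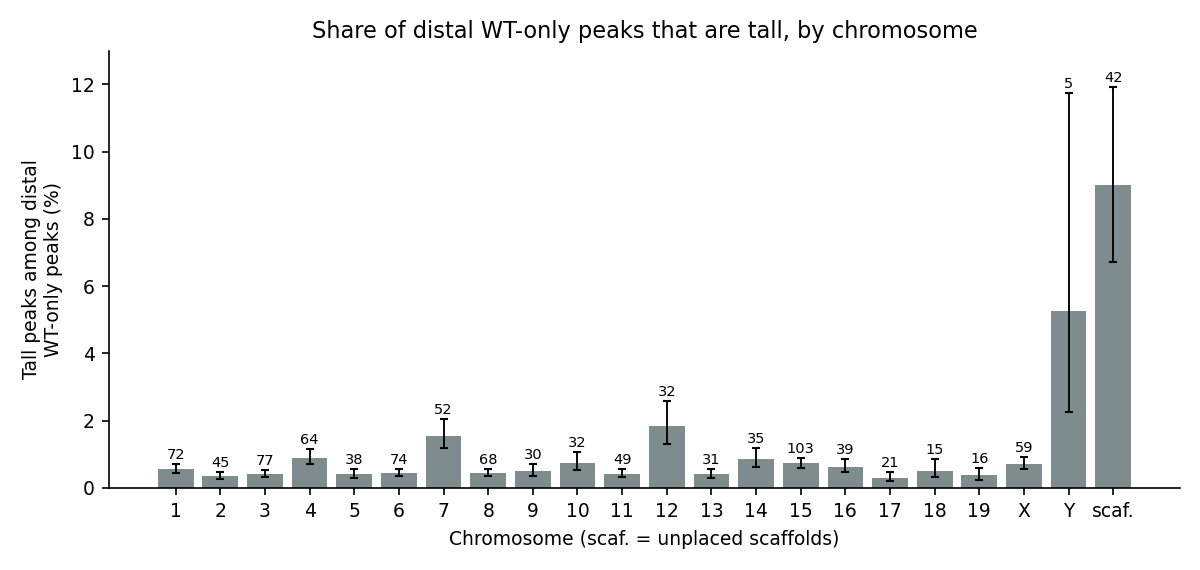
Percentage of distal WT-only peaks that reach the height limit, by chromosome, with Wilson 95% intervals; the number over each bar is the count of tall peaks. Unplaced scaffolds (8.99%) and chromosome Y (5.26%, 5 peaks) stand above the other chromosomes, which lie between 0.307% and 1.84%.

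Most of the peaks stood alone, and 157 (15.7%) had another within 50 kb. They formed 53 clusters, 33 of them pairs and 20 with 3 or more peaks, which held 91 in all. The largest was on the scaffold 1_GL456211_random, with 14 peaks of 13 to 18 steps in 226 kb among 3 CKO and 43 WT peaks. On assembled chromosomes 9 peaks of 13 to 22 steps lay among 4 CKO peaks at chr6:114519631-114599757, a span without a gene of the count table between Atg7 and Hrh1. Another 9, of 16 to 32 steps, lay among 2 CKO peaks at chr7:59728578-59780011. They were in or beside LOC102640399 and near Ipw, a non-coding gene of the imprinted Prader-Willi region. At Ipw all 9 were above the median height of the 999 peaks, which was 14 steps.

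At chr1:85462731-85628125, 7 peaks of 13 to 27 steps lay among 2 CKO peaks, in or beside Sp110, Sp140, Gm2427, Gm2666 and LOC101055758. Sp110 and Sp140 encode nuclear body proteins that interferon induces. On chromosome 4, 4 of the 20 larger clusters were found, one of them at chr4:146189126-146242706 in Zfp600, a zinc finger gene, and Gm13165. Of the 53 clusters, 43 held no CKO peak between their ends and 10 held at least 1.

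The RNA libraries were compared to see what the nearest genes did when Hsf1 was knocked down. They held 7224496 to 8162787 gene counts in the LacZ groups and 3693554 to 4274852 in the GCN5 groups. In each group 7 of 8 fibroblast markers averaged at least 1 CPM. So did 1 of 5 epithelial, 2 of 4 haematopoietic, 1 of 4 pluripotent and 0 of 4 endothelial markers. Epcam, Itgam, Pou5f1 and Lin28a were at 0 in every library, while the summed epithelial markers reached 62.35 CPM in 1 siControl LacZ library. Hsf1 had 75.3, 37.0 and 45.1 spike-scaled CPM in siHsf1 LacZ libraries, against 208, 121 and 163 in siControl LacZ libraries, and the groups did not overlap. It had 68.0, 73.7 and 58.3 in siHsf1 GCN5 libraries, against 158, 92.4 and 130.5 in siControl GCN5 libraries, also without overlap. With spike-in scaling the Hsf1 difference passed in LacZ (log2 fold change -1.65, adjusted p = 0.00012, edgeR) and did not pass in GCN5 (-0.93 ± 0.32, adjusted p = 1, edgeR), and with TMM it passed in GCN5 too (-0.88, adjusted p = 8.19e-07, edgeR). Kat2a had 302.5, 178 and 232 spike-scaled CPM in siControl GCN5 libraries, against 348, 202 and 266 in siControl LacZ libraries, which overlapped. With TMM it had 262, 233 and 245 CPM in siControl GCN5 libraries, against 215.2, 214.7 and 219.8 in siControl LacZ libraries, without overlap. Whether reads of the transgene count towards Kat2a is not known here. In bulk RNA, fewer cells that express a gene and less of its RNA per cell cannot be told apart. The knockdown is a different perturbation from the deletion used for CUT&RUN.

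The genes nearest to the tall distal WT-only peaks were largely silent, and the share of the tested ones that was called lay near that of all genes. The 957 peaks had 871 nearest genes, of which 195 (22.4%) passed the filter on low counts, 163 of them protein-coding. Taken per peak, 22.99% had a tested nearest gene, against 51.3% of shared tall distal peaks and 25.1% of lower distal ones. Per length, the siControl LacZ level of the 195 had a median of 6.51 CPM per kb, against 8.99 for all 12187 tested genes.

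In siHsf1 LacZ against siControl LacZ with spike-in scaling, 9 of the 195 (4.62%) were called at an adjusted p below 0.05 (edgeR's quasi-likelihood test, Benjamini-Hochberg over all tested genes), and the background over all tested genes was 7.02%. By direction 3 were higher and 6 lower, where the background was 0.993% and 6.03%. With scaling to the gene counts themselves (TMM), 83 of the 195 were called (42.6%), where the background was 40.6%. By direction 57 were higher (29.2%) and 26 lower (13.3%), where the background was 21.1% and 19.5%. The TMM split thus lay further from the background than the total did, and no set test was made. The median log2 fold change of the 195 was -0.27 with spike-in scaling and 0.09 with TMM, beside -0.35 and 0.02 for all tested genes. Levels are therefore read against that common shift, and the sign of this median turns with the scaling.

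**Figure D4:**
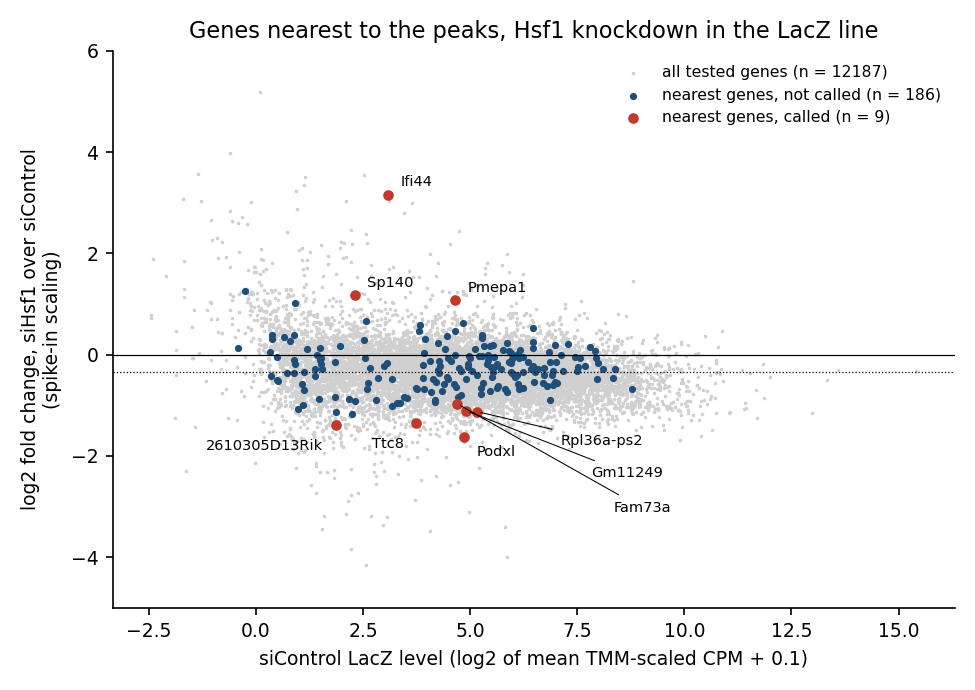
Log2 fold change of each tested gene in siHsf1 LacZ over siControl LacZ (spike-in scaling) against its siControl LacZ level (log2 of the mean TMM-scaled CPM plus 0.1). Grey points are all 12187 tested genes, blue the 186 nearest genes not called, red the 9 called, and the dotted line is the median of all genes, -0.35; 3 called genes lie above it and 6 below.

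The 3 nearest genes that rose in the siHsf1 LacZ group were Ifi44, Sp140 and Pmepa1. Ifi44, an interferon-induced gene 124585.5 bp from a peak of 13 steps, had 129, 59.1 and 88.7 spike-scaled CPM in siHsf1 LacZ libraries, against 13.5, 8.80 and 8.84 in siControl LacZ libraries. Every siHsf1 library was far above every siControl library (log2 fold change 3.16 ± 0.35 SE, adjusted p = 1.35e-15, edgeR). Sp140, in the chromosome 1 cluster, had 19.4, 8.40 and 12.1 spike-scaled CPM in siHsf1 LacZ libraries, against 5.33, 5.11 and 7.04 in siControl LacZ libraries, with no overlap (1.17 ± 0.38, adjusted p = 0.0354, edgeR). The peak that had Sp140 as its nearest gene (13 steps) lay 5063 bp from the start of Sp140, just beyond the limit, and 1841 bp from a CKO peak. That peak lay within the neighbouring gene Sp110, which was named after its values were seen. Sp110 had 5.58, 2.43 and 4.02, against 1.33, 1.19 and 1.20 (1.65 ± 0.51, adjusted p = 0.0269, edgeR). Related gene copies lie in this cluster, and how the authors' counting shared reads among copies is not given in the sources used here, so both values are uncertain. Pmepa1, an inhibitor of TGF-beta signalling that holds a peak of 14 steps, had 85.0, 48.3 and 60.2 in siHsf1 LacZ libraries, against 36.4, 25.3 and 30.3 in siControl LacZ libraries (1.07 ± 0.32, adjusted p = 0.022, edgeR). Summed haematopoietic markers (4 in the list) were at 11.98 to 14.3 TMM-scaled CPM in siHsf1 LacZ and 6.56 to 8.65 in siControl LacZ libraries with Itgam at 0; their part in these 3 genes was not tested.

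The 6 that fell were Podxl, 2610305D13Rik, Ttc8, Rpl36a-ps2, Gm11249 and Fam73a. Podxl, a sialomucin of the cell surface that holds a peak of 13 steps, had 17.3, 7.22 and 11.6 spike-scaled CPM in siHsf1 LacZ libraries, against 49.7, 24.3 and 36.6 in siControl LacZ libraries, and the groups did not overlap (log2 fold change -1.63 ± 0.34, adjusted p = 0.000243, edgeR). Ttc8, a subunit of the BBSome of the primary cilium with a peak of 17 steps inside it, had 8.82, 4.40 and 6.78 in siHsf1 LacZ libraries, against 23.3, 12.6 and 14.4 in siControl LacZ libraries (-1.34 ± 0.35, adjusted p = 0.00748, edgeR). 2610305D13Rik was low in every library, at 3.06, 0.706 and 1.49 in siHsf1 LacZ and 5.996, 4.40 and 2.70 in siControl LacZ libraries, and its groups overlapped. Fam73a, which holds a peak of 13 steps, had 22.7, 9.97 and 17.9 in siHsf1 LacZ libraries, against 46.6, 23.1 and 28.9 in siControl LacZ libraries, without overlap. The pseudogenes Rpl36a-ps2 and Gm11249 had log2 fold changes of -1.12 and -1.11, and a pseudogene of a ribosomal protein may share reads with its parent gene.

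Only Ifi44 and Podxl of the 9 kept an adjusted p below 0.05 in each fit that left out 1 of the 6 LacZ libraries. Without siHsf1 LacZ replicate 3 these were the 2 calls left, and without siHsf1 LacZ replicate 1 there were 47.

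**Figure D5:**
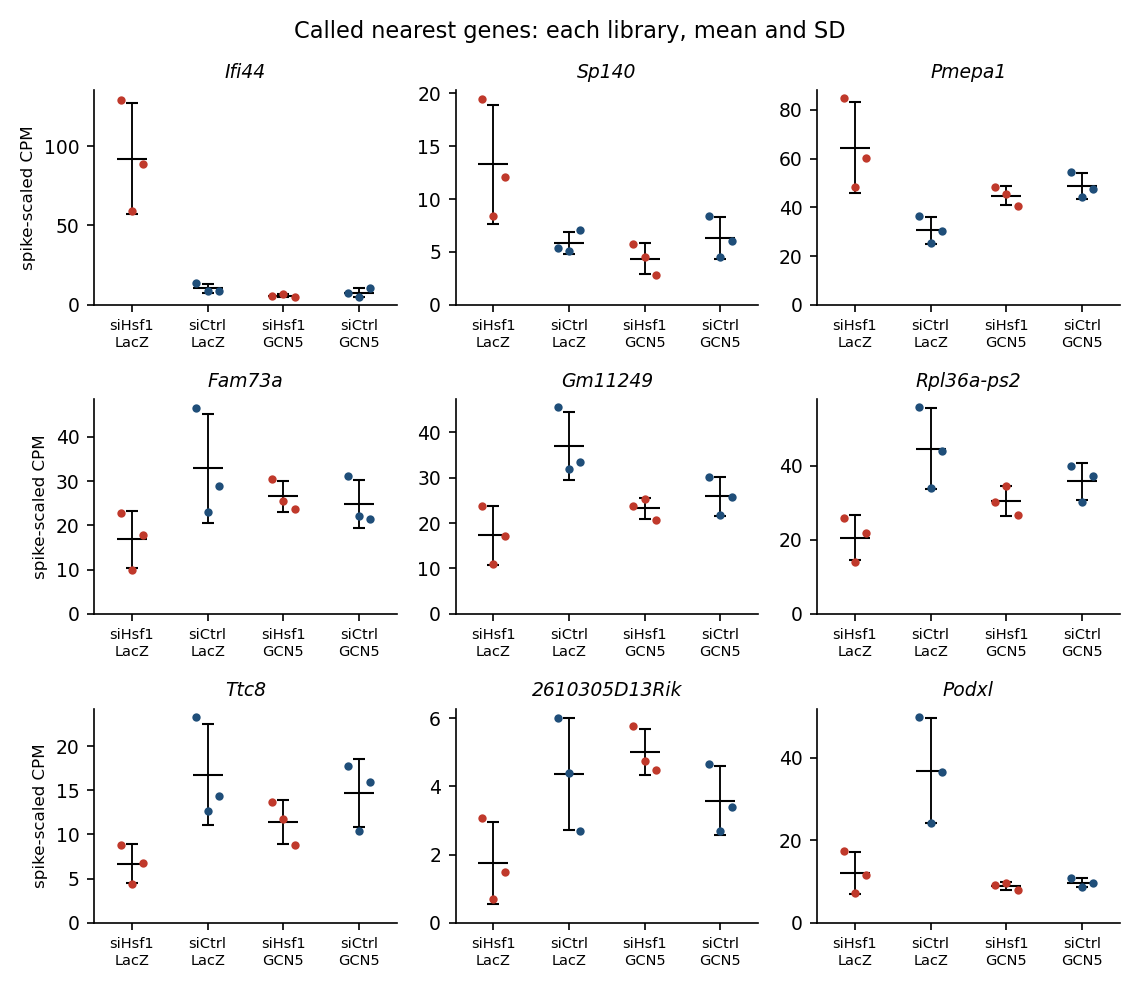
Spike-scaled CPM of the 9 called nearest genes in each library (points), with the mean and SD of 3 libraries (bars), for siHsf1 LacZ, siControl LacZ, siHsf1 GCN5 and siControl GCN5; the vertical scale differs by gene. The siHsf1 LacZ points of Ifi44 lie at 59.1 to 129, and its siControl LacZ points at 8.80 to 13.5.

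In the line labelled GCN5, where the Hsf1 difference itself did not pass with spike-in scaling, 0 of the 195 nearest genes were called in siHsf1 against siControl by edgeR with either scaling, where the background was 0.041% with spike-in scaling (0.0328% higher and 0.00821% lower) and 0.164% with TMM (0.0656% higher and 0.0985% lower); at an unadjusted p below 0.05 there were 2 and 18 (1.03% and 9.23%), near the 0.911% and 9.66% of all tested genes. DESeq2 also called 0. The median log2 fold change was -0.03, beside -0.04 for all tested genes. Podxl had 9.13, 9.75 and 7.85 spike-scaled CPM in siHsf1 GCN5 libraries, against 10.9, 8.69 and 9.65 in siControl GCN5 libraries, and the groups overlapped. The LacZ and GCN5 effects were compared by an interaction term, which with spike-in scaling was called for 48 of 12187 genes (0.394%) and 1 of the 195, Ifi44. With TMM it was called for 2677 genes (22%) and 45 of the 195. These 45 included all 9 nearest genes called in LacZ with spike-in scaling. The 9 were picked for their LacZ effect, which the interaction term contains, so their calls here are partly built in. For Podxl the LacZ effect minus the GCN5 effect was -1.50 with spike-in scaling (log2, adjusted p = 0.194, edgeR) and -1.15 with TMM (adjusted p = 0.000241, edgeR), so that this call turns on the scaling. The GCN5 libraries were shallower than the LacZ libraries, and line and depth cannot be told apart.

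The nearest genes with the highest level per length in siControl LacZ included subunits of the respiratory chain, and of those named here only Rpl36a-ps2 was called with spike-in scaling. They were led by Ndufa4 (507 CPM per kb), a subunit of the respiratory chain, Cox7c (279), a subunit of cytochrome c oxidase, Gng5 (269) and Pfdn5 (265), a prefoldin subunit described as a MYC-binding protein. The peak centre assigned to Cox7c lay 585706 bp from its start, against 22236 bp for Gng5 and 13475 bp for Pfdn5. Cd24a, Actr3, Snd1 and Pttg1ip followed between 68.2 and 177. Ndufa4 was the nearest gene of 4 peaks of 13 steps at 17570 to 223865.5 bp, 3 of them in 57.0 kb, and had 292, 155 and 225 spike-scaled CPM in siHsf1 LacZ libraries, against 406, 251 and 280 in siControl LacZ libraries, which overlapped. Its log2 fold change was -0.48 ± 0.32 (adjusted p = 0.371, edgeR).

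Pvt1, Tada2a and Abcg2, which hold peaks, were not called with spike-in scaling. Pvt1 had 42.0, 29.9 and 26.9 spike-scaled CPM in siHsf1 LacZ libraries, against 50.9, 31.4 and 41.4 in siControl LacZ libraries (log2 fold change -0.32 ± 0.32, adjusted p = 0.556, edgeR). Tada2a had 55.1, 31.4 and 40.8, against 77.3, 40.1 and 55 (-0.44 ± 0.32, adjusted p = 0.41, edgeR). Abcg2 had 71.3, 34.1 and 58.9, against 111, 69.7 and 81.4, with 1 siHsf1 library within the siControl range; its log2 fold change was -0.67 with spike-in scaling (adjusted p = 0.19, edgeR) and -0.32 with TMM (adjusted p = 0.00364, edgeR). Of the 13 MYC network genes 10 were tested, and 0 rose and 2 fell with spike-in scaling, where the background was 0.993% and 6.03%: Myc itself (-0.94 ± 0.32, adjusted p = 0.0491) and Mxi1, a MYC antagonist (-1.12 ± 0.32, adjusted p = 0.0174, both edgeR). With TMM 1 rose and 3 fell, against a background of 21.1% and 19.5%: Mnt, a MYC antagonist, was higher (0.55, adjusted p = 0.000173, edgeR) and Mxd3 lower (-0.44, adjusted p = 0.00604, edgeR) beside Myc and Mxi1.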

How the data were processed

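The authors deposited raw gene counts per library, with gene lengths, and 1 peak list per genotype that gives a total and a maximal signal per peak. Per the submitters' processing notes, HISAT2, DESeq2, Bowtie2, SEACR and GRCm38/mm10 were used; the sources used here give no versions, no counting program and no word on whether the 2 CUT&RUN replicates were pooled. Per the series' design text the signal was scaled to E. coli spike-in DNA, and the scaling cannot be undone here. No CUT&RUN read depth is known, so Wilson 95% intervals on shares of peaks cover counting error only.

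The members, gene lists and tests were chosen with earlier results of these data known. A shared base counted as overlap. The nearest gene had the start closest to the centre of the peak. Of 41608 genes, 40306 matched the RefSeq table.

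Counts (3693554 to 8162787 per library) were tested with edgeR 4.0.16 (R 4.3.3; filterByExpr with a minimum count of 10, robust quasi-likelihood, 12 libraries in 4 groups, two-sided, Benjamini-Hochberg, calls below 0.05). Spike-in scaling used the summed counts of 23 ERCC transcripts of subgroup B, which are equal in both mixes, since siHsf1 RNA got mix 2 and siControl RNA mix 1; these identifiers were listed from general knowledge. They made up 0.142 to 0.356% of the counts. Spike-scaled CPM are set to the mean spike-in total. The scripts were tested on simulated counts with a constant expected spike-in share. That test does not cover the spike-in variation between the real libraries. DESeq2 1.42.0, TMM and other alternatives are in the closing section. Replicate numbers were not treated as pairs.

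Named peaks were the 10 tallest and those nearest the limits. Named genes were the nearest genes of the 10 tallest peaks, up to 10 called nearest genes in each direction, and the 10 nearest genes highest per length, of which 1 is not reported here; others are marked as chosen after their values were seen. No genome was at hand, so motifs in the peaks themselves were not searched. Peak starts are printed 1-based.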

Additional observations from a re-analysis of the deposited data

Results flagged for a closer look

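Ifi44 responded differently to siHsf1 in the 2 lines. Its log2 fold change in LacZ minus that in GCN5 was 3.60 ± 0.51 (SE, spike-in scaling, adjusted p = 1.36e-08, edgeR's interaction term over 12187 genes), and 3.90 with TMM (adjusted p = 6.47e-11). Ifi44 had 129, 59.1 and 88.7 spike-scaled CPM in siHsf1 LacZ libraries, against 13.5, 8.80 and 8.84 in siControl LacZ libraries, and 5.77, 6.497 and 4.67 in siHsf1 GCN5 libraries, against 7.16, 5.17 and 10.7 in siControl GCN5 libraries. Each siHsf1 LacZ library was above every other library, and the GCN5 groups overlapped.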

How the results depend on the processing

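Doubling the height limit left 46 of the 999 peaks, with 37.0% in genes and 4.35% in clusters; a CKO margin, a longer distance to gene starts, no width limit and, chosen after seeing the data, assembled chromosomes or RefSeq starts gave 876 to 1100. The share in clusters was 19.5% without the width limit, 13.0% on assembled chromosomes, 10.9% with a gap of 20 kb and 21.0% with 100 kb. WT peaks without CKO overlap were 96.9% with a 1000 bp margin, 98.8% when 50% of the peak had to be covered and 41.8% of tall peaks. For siHsf1 LacZ, 856 genes and 9 nearest genes were called, against 129 and 2 in the LacZ libraries alone, 4237 and 75 with DESeq2, 4944 and 83 with TMM, and 59 of 735 nearest genes that passed the filter. The split of all calls was 121 higher and 735 lower with spike-in scaling, and 2571 and 2373 with TMM. The median fold change of nearest genes reversed, to 0.0825 (log2) with DESeq2 and 0.0944 with TMM. With the replicate block, 5057 genes and 75 nearest genes were called in LacZ and 16 genes in GCN5. The labels do not say that a number marks a shared batch. Across genes the deviations of same-numbered libraries correlated little (-0.06 to 0.07 with either scaling), but a correlation leaves out a shift common to all genes. With spike-in scaling the median shift of replicates 1, 2 and 3 was 0.470, -0.470 and 0.009 in siHsf1 LacZ and 0.396, -0.370 and -0.017 in siControl LacZ. In the GCN5 line it was 0.113, 0.098 and -0.206 in siHsf1 and 0.291, -0.292 and 0.004 in siControl. The spike-in share did follow the number in LacZ (0.177, 0.356 and 0.248% in siHsf1, 0.142, 0.239 and 0.190% in siControl), a hint of pairing from the data, not from the design. For siHsf1 GCN5, 5 genes were called, against 3 in the line alone, 35 with DESeq2 and 20 with TMM. Leaving out 1 library gave 167 to 3337 genes and 2 to 47 nearest genes in LacZ, with a median of -0.57 to -0.0492, and 4 to 9 genes and 0 nearest genes in GCN5. Each LacZ library moved the count by over 1.5 times: the nearest genes called were 3, 16 and 3 without siControl replicates 1, 2 and 3, and 47, 4 and 2 without siHsf1 replicates 1, 2 and 3. The cause was not tested. E-box searches in the peaks were not run for want of a genome. One peak list per genotype and an unknown read depth limit the peak results, and spike-in counts that varied within groups limit the RNA calls.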
